A study of Mus musculus with 36 samples.

Results

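The part of the thapsigargin response that differs between wild-type cells and cells without the kinase PERK was measured in 12 of the 36 RNA-seq libraries of a series on mouse embryonic fibroblasts, connective tissue cells grown from mouse embryos. For each gene the change from DMSO to thapsigargin in the cells labelled PERK -/- (Perk-null below) was compared with the same change in wild-type (WT) cells, and the Perk-null response minus the WT response on the log2 scale is called the response difference. The 12 libraries were 3 of WT cells with DMSO (the solvent), 3 of WT cells with thapsigargin, 3 of Perk-null cells with DMSO and 3 of Perk-null cells with thapsigargin. The other 24 libraries held both genotypes with BtdCPU or halofuginone, each alone or with thapsigargin, and they gave 2 further response differences in separate libraries. The labels named no clone, passage or second line for either genotype, so whatever else differs between the WT and Perk-null cells cannot be told apart from PERK. The labels gave no dose, treatment time or batch and did not say that replicates were separate cultures, so p-values measure only the spread between these samples.

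Thapsigargin blocks the calcium pump of the endoplasmic reticulum (ER), the compartment in which secreted and membrane proteins fold, and so causes ER stress. Cells sense that stress through PERK, ATF6 and IRE1. PERK phosphorylates the translation factor eIF2 alpha, which lowers protein synthesis and favours translation of the transcription factor ATF4, and this integrated stress response (ISR) is also reached through other eIF2 alpha kinases. ATF6 and the spliced form of XBP1 made by IRE1 (XBP1s) raise chaperones and degradation factors of the ER, and IRE1 also cuts some mRNAs at the ER membrane.

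Depth was similar in the 12 libraries, with 33509674 to 37178107 counts and 13395 to 14402 genes at 10 counts or more. All 10 fibroblast markers were detected, with summed levels of 15431 to 29798 CPM (counts scaled to TMM-adjusted library size). The lists for epithelium, endothelium, muscle and pluripotent cells summed to at most 6.07 CPM in any library. Leukocyte markers summed to 4.43 to 5.11 CPM in the WT libraries, 7.25 to 10.1 CPM in Perk-null DMSO libraries and 11.6 to 17.1 CPM in Perk-null thapsigargin libraries, with Emr1 and Cd3e among the markers at 3 counts or fewer. Neural markers summed to 51.9 to 66.8 CPM in WT DMSO, 197 to 233 CPM in WT thapsigargin, 49.5 to 57.1 CPM in Perk-null DMSO and 79.3 to 99.3 CPM in Perk-null thapsigargin libraries. Of the 6, 4 (Sox10, Rbfox3, Gfap and Olig2) lay at 3 counts or fewer, so these sums came almost wholly from Tubb3 and Mbp. Eif2ak3, the gene of PERK, read 30.3, 32.4 and 30.7 CPM in WT DMSO libraries, 79.1, 78.1 and 104 CPM in WT thapsigargin libraries, 9.37, 9.67 and 10.8 CPM in Perk-null DMSO libraries and 27.4 ± 3.31 CPM (SD, n = 3) in Perk-null thapsigargin libraries. Each Perk-null library lay under each WT library of the same treatment, and the transcript was still read in all of them.

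Thapsigargin was followed by a different change in the 2 genotypes for 6124 of 16065 tested genes (38.1%; edgeR quasi-likelihood test, Benjamini-Hochberg adjusted p under 0.05), 3130 with a higher value in Perk-null cells (19.5%) and 2994 with a lower one (18.6%). The difference was at least 1 on the log2 scale for 2843 genes, 17.7% of those tested, higher in 8.96% and lower in 8.73%. The response itself was called for 47.6% of tested genes in WT (24.9% up, 22.7% down) and 27.9% in Perk-null cells (15.2% up, 12.7% down), and the genotypes differed for 49.5% in DMSO and 65.6% in thapsigargin. ISR genes, here 64 tested genes on 4 lists of ISR targets and a list of cytosolic tRNA synthetases, made up 55 of the 6124. The other 6069 are on none of these lists and are called outside the ISR below, though the ISR may still act on some of them. The median response difference over all tested genes was 0.03.

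WT cells carried most of these differences. The absolute response was larger in WT for 4070 of the 6124 genes (66.5%), for 51 of the 54 ISR genes with a lower value (94.4%) and for 4019 of the 6069 genes outside the ISR (66.2%). In the largest class, 1588 genes fell in WT cells and did not pass the test in Perk-null cells (25.9% of the 6124), with a median response of -0.78 in WT and 0.11 in Perk-null. Another 1417 rose in WT cells without passing in Perk-null cells (23.1%, medians 0.87 and -0.08). In 1235 genes (20.2%) both responses passed and ran in opposite directions. Perk-null cells alone carried 586 rises (9.6%, median 0.73 against -0.15 in WT) and 569 falls (9.3%, median -0.60 against 0.12). The remainder were 314 genes that moved the same way and further in WT, 96 that moved the same way and further in Perk-null, and 319 called for the difference with neither response called. A response that did not pass the test is given by its value and is not taken as absent. Of the 6124 genes 3390 also differed between the genotypes in DMSO (49.5% of all tested genes did), and 1023 of these did not differ with thapsigargin. The carrier is read from the responses alone and does not account for such unequal starting levels.

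**Figure D1:**
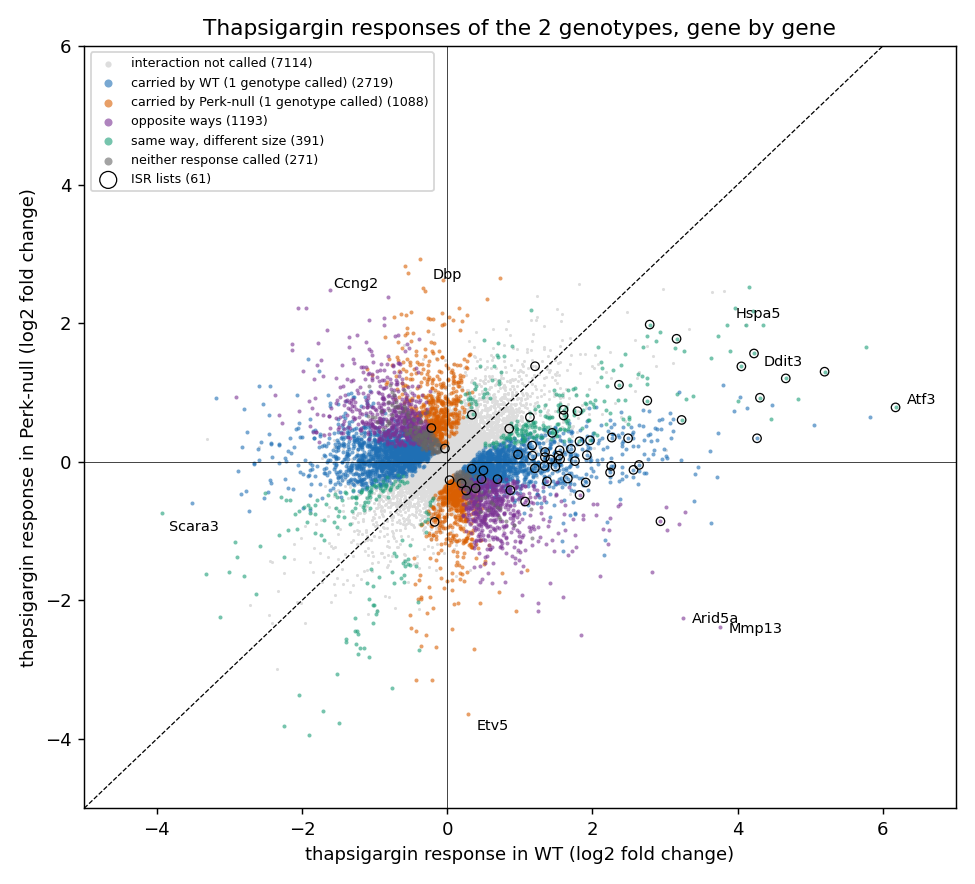
Thapsigargin response of each gene in WT cells (x axis) and in Perk-null cells (y axis), both as log2 fold changes, for the 12776 tested genes with more than 3 counts in each of the 12 libraries; colours give which genotype carries the difference, open circles the 61 ISR genes among them, and the dashed line equal responses. Most ISR genes lie to the lower right of the dashed line, with WT responses of up to 6.17 (Atf3), and a few such as Slc36a4 (-0.22 in WT, 0.49 in Perk-null) lie above it, while genes such as Etv5 (0.28 in WT, -3.63 in Perk-null) lie below the axis and genes such as Ccng2 (-0.82 and 2.38) in the upper left.

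Most ISR genes rose in WT cells, and for most of them the Perk-null value was the lower one. Atf4 read 371, 393 and 317 CPM in WT DMSO libraries and 1501, 1395 and 1327 CPM with thapsigargin. In Perk-null cells it read 533, 646 and 566 CPM with DMSO and 725, 781 and 656 CPM with thapsigargin. The WT thapsigargin libraries stood above all others, and the Perk-null DMSO libraries stood above the WT DMSO libraries without overlap. In 69.3% of all tested genes the WT and Perk-null thapsigargin libraries did not overlap, so a lack of overlap there is common. The response difference of Atf4 was -1.66 (SE 0.15, edgeR adjusted p 5.072e-10).

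Ddit3, the gene of the transcription factor CHOP, went in WT from 13.6 ± 2.62 CPM with DMSO to 345 ± 35.9 CPM with thapsigargin, and in Perk-null cells from 20.8 ± 1.99 to 47.8 ± 12.3 CPM (SD, n = 3). Its rise was called in both genotypes, and the difference was -3.46 (SE 0.30). Ddit3 overlaps the tested genes Mars and Mbd6, so its counts can include reads of these neighbours. Atf3, a stress transcription factor, had the largest difference of the ISR regulators, with a rise of 6.17 in WT, one of 0.78 in Perk-null and a difference of -5.39 (SE 0.34). Ppp1r15a, whose product GADD34 directs the phosphatase that reverses eIF2 alpha phosphorylation, had a WT rise of 4.27, while its value of 0.34 in Perk-null did not pass the test.

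In the list of 14 ISR transcription factors and regulators, 12 had a lower response in Perk-null cells (18.6% of all tested genes did) and none a higher one, with a median response of 2.12 in WT and 0.71 in Perk-null. All 14 rose in WT cells and 9 also rose in Perk-null cells, among them Chac1 (4.05 and 1.38), which degrades glutathione, and the pseudokinase gene Trib3 (4.22 and 1.56). The members not called for the difference were Cebpb (-0.38) and Ddit4 (0.17), which encodes an inhibitor of mTORC1.

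Of the 15 genes of amino acid synthesis and one-carbon metabolism, 13 were lower, with a median response of 1.49 in WT and 0.10 in Perk-null. Asns, asparagine synthetase, went from 224 ± 13.4 to 848 ± 45.0 CPM in WT and from 432 ± 45.1 to 461 ± 73.9 CPM in Perk-null cells (SD, n = 3). Its Perk-null DMSO libraries stood above the WT DMSO libraries, and with thapsigargin the order was the reverse. Got1, an aspartate aminotransferase, and Shmt2, a mitochondrial serine hydroxymethyltransferase, rose in WT (1.82 and 1.37) and fell in Perk-null cells (-0.48 and -0.28). Psat1 had a smaller difference of -0.87 (SE 0.16). With thapsigargin it stood at 689 ± 43.3 CPM in WT and 692 ± 66.3 CPM in Perk-null cells (SD, n = 3). Its difference came with a DMSO level that was higher in Perk-null cells by 0.88 on the log2 scale. Pycr1 did not pass the test (-0.50) and did with the block within genotype (adjusted p 0.01035).

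Amino acid transporters and tRNA synthetases also had negative medians. Among 10 transporters 7 were lower and 1, Slc36a4, was higher (2 with the block within genotype), and Slc7a11, the cystine transporter, had a difference of -3.38. Among 20 tRNA synthetases 18 were lower, with a median response of 1.17 in WT and -0.08 in Perk-null, and 7 of the 20 fell in Perk-null cells. Nars, which charges asparagine tRNA, read 479, 461 and 449 CPM in WT DMSO, 1642, 1374 and 1683 CPM in WT thapsigargin, 447, 482 and 416 CPM in Perk-null DMSO and 467, 480 and 407 CPM in Perk-null thapsigargin libraries. Only the WT thapsigargin libraries left the common range of the other 9. Of the 5 secreted ISR factors 4 were lower, including the hormone gene Stc2 (2.94 in WT, -0.86 in Perk-null) and Vegfa (1.91 and -0.30), an angiogenic factor whose Perk-null response did not pass the test.

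Promoter sequence was compared with these calls in the 11806 tested genes that have a RefSeq window, from 250 bases before to 50 after the transcript start in GRCm38.p6. The composite ATF4-C/EBP motif TGATGNAA was present on either strand in 14 of 42 ISR genes with a lower response (33.3%) and in 3.13% of all windows. Gene lists here and below were chosen from general knowledge of their members, so a motif's share in a list does not test the calls. Outside the ISR the ATF4-C/EBP motif was present in 3.51% of the genes with a lower response, and in 5.07% of those lower by at least 1 on the log2 scale. The following 55-base stretches are shown because they hold the motif in ISR genes named here and in Avil and Arid5a. Avil and Arid5a are on none of the ISR lists and have large negative response differences. Capitals mark the fixed letters of the motif or of its complement, and coordinates are in GRCm38.p6.
Chac1 (chr2:119351027-119351081, + strand): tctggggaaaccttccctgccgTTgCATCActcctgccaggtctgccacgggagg
Asns (chr6:7693210-7693264, - strand): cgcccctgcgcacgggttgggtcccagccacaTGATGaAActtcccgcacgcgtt
Atf3 (chr1:191183414-191183468, - strand): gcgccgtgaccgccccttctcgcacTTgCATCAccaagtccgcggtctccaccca
Slc7a11 (chr3:50443639-50443693, - strand): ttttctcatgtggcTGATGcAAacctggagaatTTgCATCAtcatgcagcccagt
Tars (chr15:11399659-11399713, - strand): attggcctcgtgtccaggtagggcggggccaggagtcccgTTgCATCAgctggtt
Avil (chr10:127000654-127000708, + strand): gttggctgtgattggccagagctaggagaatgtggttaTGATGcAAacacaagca
Arid5a (chr1:36307545-36307599, + strand): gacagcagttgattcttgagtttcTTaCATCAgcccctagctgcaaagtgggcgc

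Slc7a11 holds 2 copies in its stretch, and the other 6 stretches hold 1. A match describes the letters in this window and is not evidence of binding. The CREB/ATF motif TGACGTCA, which shares its opening letters TGACGT with the XBP1s motif TGACGTGG, was found in 4.44% of the genes with a lower response outside the ISR, 2.05% of those with a higher response and 3.41% of all windows.

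ER chaperones rose in both genotypes and less in Perk-null cells. All 14 genes of the ATF6-linked list rose in WT (median 2.60) and all 14 in Perk-null cells (median 1.60), and 12 had a lower response in Perk-null cells, all 12 of them rising further in WT. Hspa5, the gene of the main ER chaperone BiP, read 1423, 1604 and 1143 CPM in WT DMSO libraries and 22341, 19330 and 18473 CPM with thapsigargin. In Perk-null cells it read 1494, 1670 and 1540 CPM with DMSO and 6364, 5910 and 6202 CPM with thapsigargin. The DMSO libraries of the genotypes overlapped, and the thapsigargin libraries did not. The difference was -1.88 (SE 0.20, edgeR adjusted p 8.375e-09), in a gene that overlaps Rabepk. Herpud1, a membrane protein of ER-associated degradation, differed by -2.38. Canx (-0.17) and Pdia6 (-0.14) were the 2 members not called.

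The XBP1s-linked list was less divided, with medians of 0.88 in WT and 0.72 in Perk-null. Of its 24 genes 6 were lower and none higher, against 18.6% and 19.5% of all tested genes. Dnajb9, an ER co-chaperone, read 9.26, 12.9 and 8.82 CPM in WT DMSO, 152, 144 and 165 CPM in WT thapsigargin, 11.3, 10.5 and 10.9 CPM in Perk-null DMSO and 33.3, 30.3 and 35.8 CPM in Perk-null thapsigargin libraries. The Perk-null thapsigargin libraries thus stood between the DMSO libraries and the WT thapsigargin libraries. Sel1l (-1.45) and Syvn1 (-1.13), which form a ubiquitin ligase of ER-associated degradation, were also called, while Sec61a1 (-0.09) and Ssr1 (-0.02) of the translocon were not. Xbp1 itself differed by -0.33, which did not pass the test (adjusted p 0.195) and was -0.36 with an adjusted p of 0.0255 when replicate numbers within a genotype were fitted as a block. The ATF6 motif, CCAAT and CCACG with 9 bases between them, searched on both strands, was present in 9 of 31 windows of the ATF6 and XBP1s lists (29.0%) and in 22 of all 11806 (0.186%). It was also present in Canx and Pdia6, the members of the ATF6-linked list whose differences were not called. It was not found before the start of Herpud1, which had the largest difference of that list and held the ATF4-C/EBP motif. Stretches of Hspa5, Creld2 and Syvn1 are shown because they hold this ATF6 motif and their differences are among the 3 largest of their list. Capitals mark the fixed letters of the motif or its complement, in GRCm38.p6.
Hspa5 (chr2:34772005-34772059, + strand): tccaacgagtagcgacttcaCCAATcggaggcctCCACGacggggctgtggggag
Creld2 (chr15:88819501-88819555, + strand): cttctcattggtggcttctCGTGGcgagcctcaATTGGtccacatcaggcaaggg
Syvn1 (chr19:6046513-6046567, + strand): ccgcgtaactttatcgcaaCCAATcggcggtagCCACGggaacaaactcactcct

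Known substrates of IRE1-dependent mRNA decay had the opposite sign. All 8 of them fell in WT cells (median -1.54), and all 8 had a higher response in Perk-null cells, where 3 rose, 2 fell and the median was 0.18. Scara3, a scavenger receptor gene, went from 20.8 ± 2.83 to 1.35 ± 0.600 CPM in WT and from 38.1 ± 2.68 to 22.8 ± 2.36 CPM in Perk-null cells (SD, n = 3). Col6a1, a collagen VI chain, read 758, 778 and 777 CPM in WT DMSO, 210, 243 and 230 CPM in WT thapsigargin, 335, 308 and 353 CPM in Perk-null DMSO and 400, 347 and 465 CPM in Perk-null thapsigargin libraries. Its fall was in WT and its DMSO levels were already apart, with the Perk-null DMSO libraries below the WT ones. Bloc1s1, a subunit of a lysosomal trafficking complex, fell by 1.70 on the log2 scale in WT, with a value of 0.10 in Perk-null that did not pass the test; it overlaps Rdh5.

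Among 12 genes of ER calcium handling 2 were lower and 1 higher, against 18.6% and 19.5% of all tested genes. The count of higher genes was 3 with the block within genotype and 2 without WT thapsigargin replicate 3. Atp2a2, the pump that thapsigargin blocks, had rises of 1.43 in WT and 0.33 in Perk-null (difference -1.10). Saraf, which limits store-operated calcium entry, differed by -0.53. Stim1, the calcium sensor of the ER, fell by 0.57 on the log2 scale in WT and had a value of 0.38 in Perk-null (difference 0.95).

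**Figure D2:**
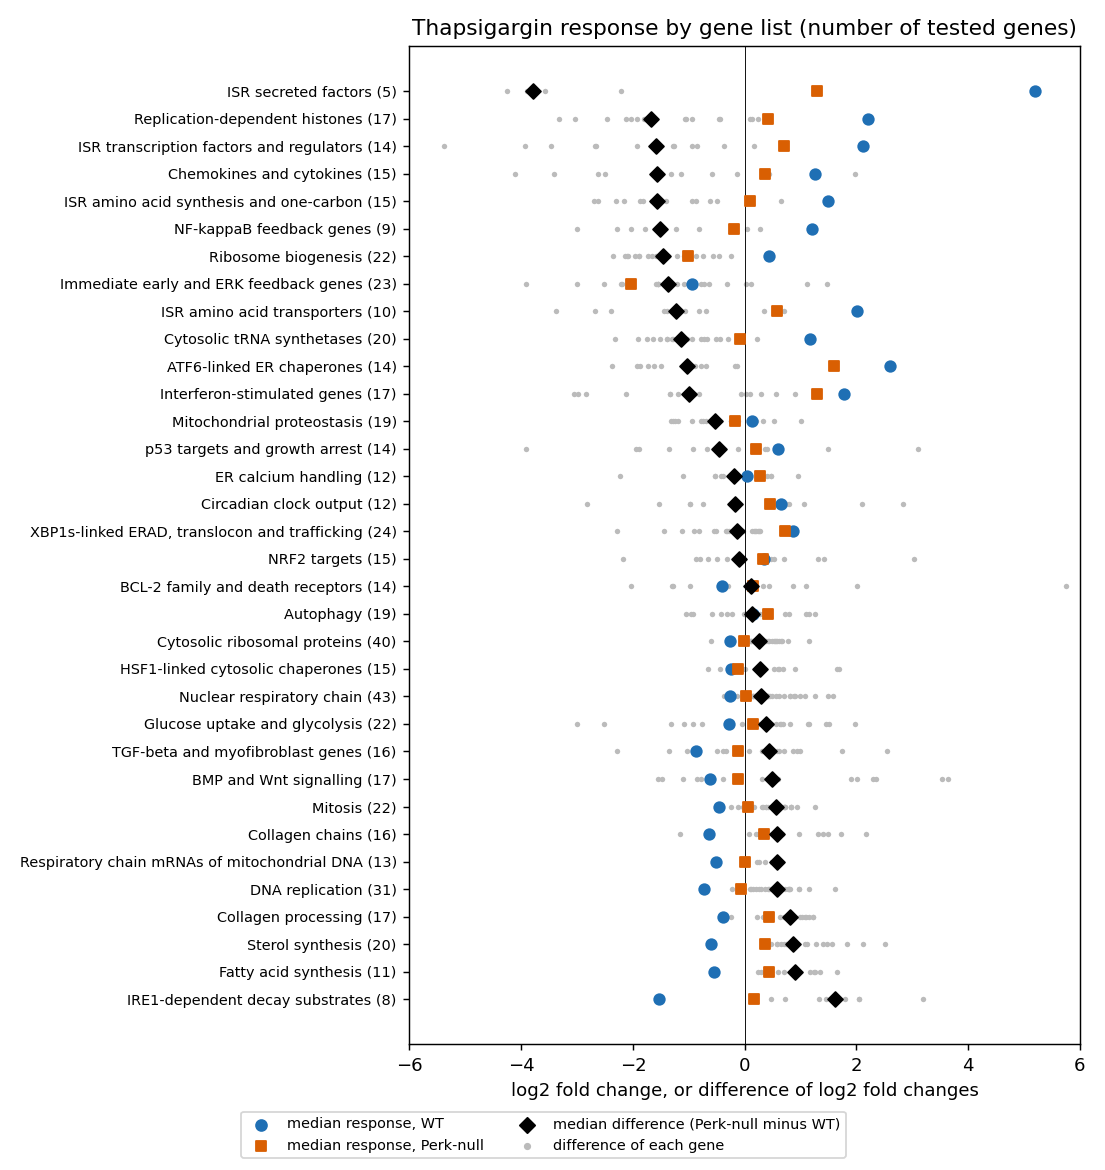
Median thapsigargin response in WT (blue circles) and Perk-null cells (orange squares), median response difference (black diamonds) and the response difference of each gene (grey points) for the 34 gene lists, on a log2 axis, with the number of tested genes in brackets; Ccl20 and Cxcl2 lie beyond the left edge. The ISR lists have the WT median far to the right of the Perk-null median, ribosome biogenesis has them on either side of 0 (0.45 and -1.02), and sterol synthesis has them on either side in the other order (-0.59 and 0.36).

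In ribosome biogenesis 20 of 22 genes had a lower response in Perk-null cells, and both genotypes carried the difference. In WT 14 rose and none fell (median 0.45), and in Perk-null 20 fell and none rose (median -1.02); 14 of the 20 ran in opposite directions and the other 6 were called in Perk-null cells alone. Nop56, a core protein of small nucleolar RNPs, read 338, 289 and 369 CPM in WT DMSO libraries, 770, 596 and 663 CPM in WT thapsigargin libraries, 616, 601 and 597 CPM in Perk-null DMSO libraries and 290, 316 and 252 CPM in Perk-null thapsigargin libraries. The order of the 2 treatments was reversed between genotypes without overlap, and the Perk-null DMSO libraries stood where the WT thapsigargin libraries did. Nop56 overlaps Idh3b and Snord57, and the same order was seen in Heatr1, a rRNA transcription and processing factor that overlaps no tested gene, with 160 ± 36.9 and 320 ± 38.9 CPM in WT and 318 ± 23.1 and 145 ± 6.27 CPM in Perk-null cells (SD, n = 3). Wdr43 differed by -2.35, Nop2 by -2.10 and Polr1b, a subunit of RNA polymerase I, by -1.96, and Npm1 (-0.46) and Fbl (-0.24) did not pass the test. Npm1 was called with the block within genotype (adjusted p 0.0008486). In DMSO, 13 of the 22 genes were higher in Perk-null cells and none lower (24.6% of all tested genes were higher).

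Myc, a transcription factor that drives ribosome production, ran the same way. It read 96.4, 70.9 and 107 CPM in WT DMSO, 322, 253 and 329 CPM in WT thapsigargin, 119, 120 and 134 CPM in Perk-null DMSO and 51.3, 52.4 and 49.6 CPM in Perk-null thapsigargin libraries. The highest libraries were those of WT with thapsigargin and the lowest those of Perk-null with thapsigargin, and the difference was -3.01 (SE 0.27).

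Immediate early genes, which growth factor signalling induces, and ERK feedback genes, which restrain that signalling, differed mainly through Perk-null cells. In Perk-null cells 21 of 23 fell (12.7% of all tested genes did) with a median of -2.03, against 12 of 23 and a median of -0.93 in WT. The response was lower in 17 and higher in 1, Dusp1. Of these 17, 8 were called in Perk-null alone, 8 fell in both genotypes and further in Perk-null, and Myc ran in opposite directions. Etv5, an ETS transcription factor, read 18.2, 18.2 and 23.4 CPM in WT DMSO, 21.3, 21.3 and 30.1 CPM in WT thapsigargin, 21.4, 20 and 20.5 CPM in Perk-null DMSO and 1.98, 2.02 and 0.988 CPM in Perk-null thapsigargin libraries. Only the Perk-null thapsigargin libraries stood apart. Fosl1, an AP-1 subunit that overlaps Ccdc85b, showed the same pattern, with 105 ± 29.1 and 94.3 ± 14.5 CPM in WT and 135 ± 11.7 and 21.1 ± 1.56 CPM in Perk-null cells. Dusp6, an ERK phosphatase, fell by 1.91 on the log2 scale in WT and by 3.94 in Perk-null, and Egr1 fell by 2.25 and 3.81.

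The EGF-family ligand gene Hbegf (-0.75 in WT, -3.27 in Perk-null), the phosphatase-like gene Mtmr10 (-0.39 and -2.72) and the matricellular gene Ctgf (-1.49 and -3.77) had the largest differences among the genes that moved the same way and further in Perk-null cells and met the level required for naming. Mtmr10 read 85.1, 63.1 and 83.9 CPM in WT DMSO, 60.7, 56.9 and 59.7 CPM in WT thapsigargin, 65.4, 60.3 and 68.2 CPM in Perk-null DMSO and 9.57, 10.1 and 9.72 CPM in Perk-null thapsigargin libraries. The Perk-null thapsigargin libraries stood far below the other 9. Edn1, the endothelin-1 precursor gene, was also called in Perk-null cells alone, with a response of -2.04 there, at under 4 CPM in each library.

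**Figure D3:**
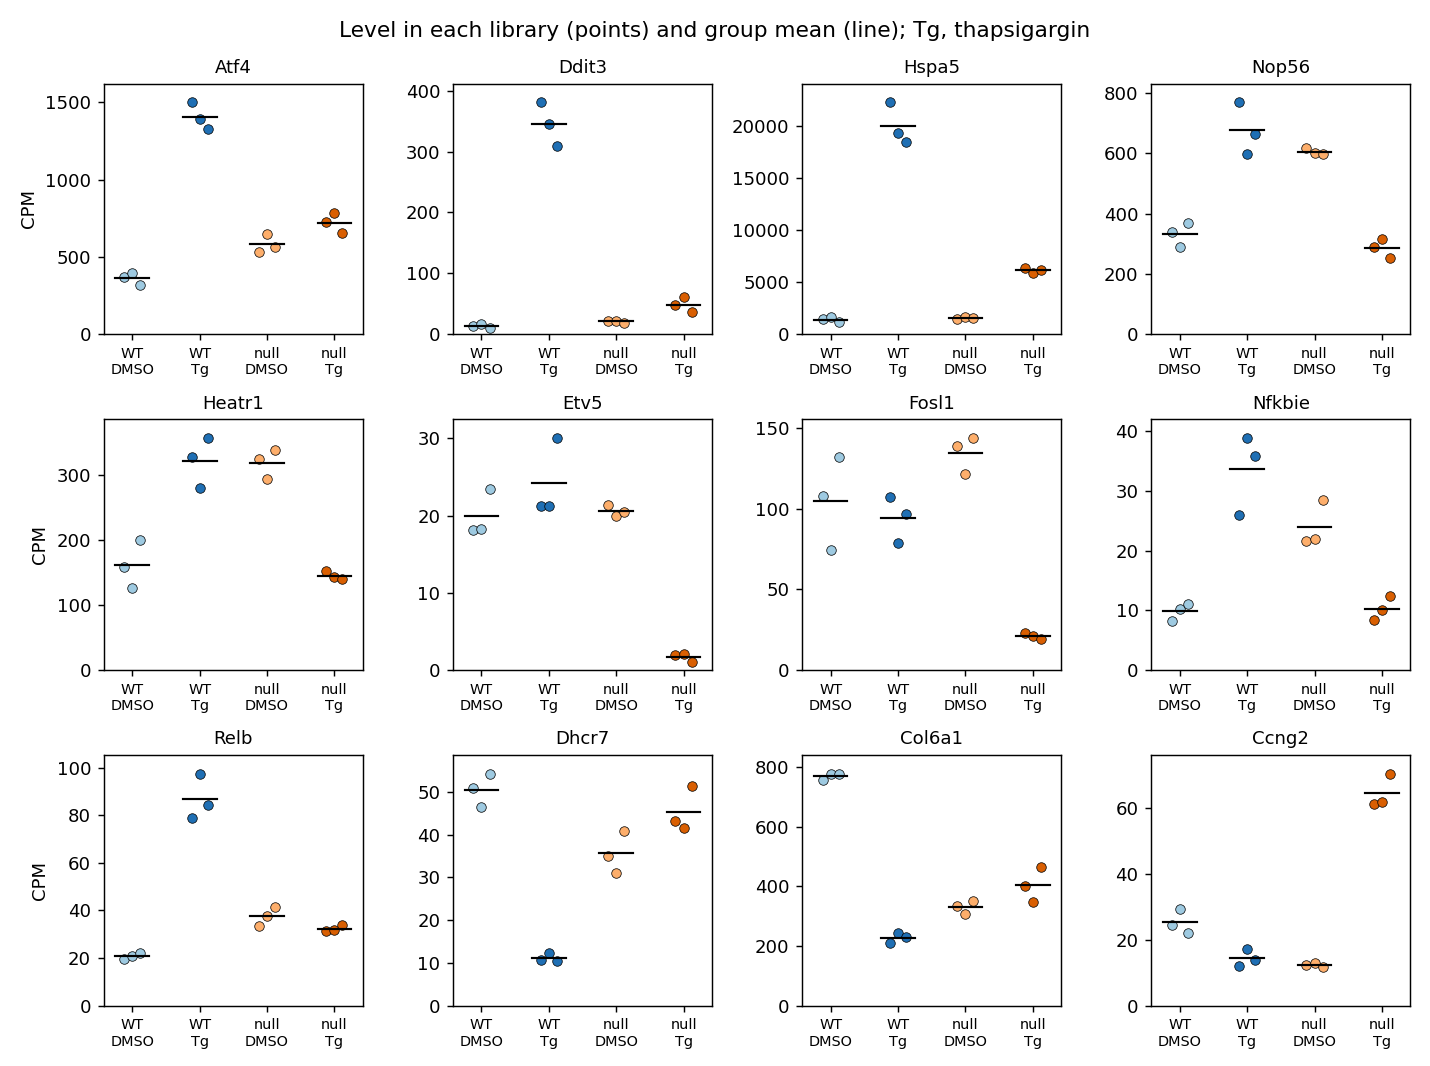
Level of 12 genes in each of the 12 libraries in CPM on linear axes that start at 0; points are libraries and lines group means (Tg, thapsigargin; null, Perk-null). Atf4, Ddit3, Hspa5 and Relb are highest in WT with thapsigargin, Nop56, Heatr1 and Nfkbie change in opposite directions, Etv5 and Fosl1 are low only in Perk-null with thapsigargin, Dhcr7 and Col6a1 fall in WT, and Ccng2 is highest in Perk-null with thapsigargin.

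Most NF-κB feedback genes rose in WT cells and had a lower response in Perk-null cells. In the NF-κB list 7 of 9 genes were lower and none higher, against 18.6% and 19.5% of all tested genes. In WT 7 rose (median 1.21), as 24.9% of all tested genes did. In Perk-null 1 rose and 3 fell (median -0.18), against 15.2% and 12.7% of all tested genes. Relb, a non-canonical NF-κB subunit, read 19.5, 20.8 and 22.3 CPM in WT DMSO, 78.6, 97.4 and 84.3 CPM in WT thapsigargin, 33.4, 37.8 and 41.6 CPM in Perk-null DMSO and 31.2, 31.7 and 33.8 CPM in Perk-null thapsigargin libraries. The Perk-null libraries of both treatments lay close together, between the WT groups. Nfkbie, an inhibitor of NF-κB, rose in WT (9.82 ± 1.44 to 33.6 ± 6.71 CPM) and fell in Perk-null libraries, where its mean was 10.3 ± 1.97 CPM (SD, n = 3) with thapsigargin. Nfkb1 (0.05) and Nfkbia (0.28) did not pass the test.

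Of 15 chemokines and cytokines 8 were lower and 1 higher, against 18.6% and 19.5% of all tested genes. Cxcl10, an interferon-induced chemokine, read 0.857, 0.450 and 0.619 CPM in WT DMSO, 30, 49.6 and 25.5 CPM in WT thapsigargin, 10.6, 13.2 and 10.1 CPM in Perk-null DMSO and 34.3, 41.9 and 31.2 CPM in Perk-null thapsigargin libraries. Its thapsigargin libraries overlapped between genotypes, so the difference of -4.11 (SE 0.49) came with a DMSO level that was higher in Perk-null cells by 4.13 on the log2 scale. Lif, an IL-6 family cytokine, had a response of 1.26 in WT and -2.15 in Perk-null. Ccl20 had no count in the WT DMSO libraries and read 9.47, 17.7 and 11.5 CPM in WT thapsigargin and at most 0.248 CPM in Perk-null libraries. The chemokine Cxcl12 went the other way (-1.50 and 0.47).

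Interferon-stimulated genes rose in both genotypes, 14 of 17 in WT and 9 in Perk-null. The difference was called lower for 2 (Oasl1 and Irf9) and higher for 1 (Ifit2), against 18.6% and 19.5% of all tested genes. The count of lower genes was 8 with the block within genotype or with no filter, 4 with only these groups fitted, 1 when any 1 of 9 libraries was left out and 4 without WT thapsigargin replicate 3. Irf9 missed the threshold without any 1 of those libraries.

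Sterol synthesis genes fell in WT cells, and some rose in Perk-null cells. All 18 called genes of the 20 on the sterol synthesis list had a higher response in Perk-null cells, as 19.5% of all tested genes did. Of the 20, 13 fell in WT and none rose (median -0.59), while in Perk-null 9 rose and none fell (median 0.36). Dhcr7, which makes cholesterol from 7-dehydrocholesterol, read 50.9, 46.5 and 54.2 CPM in WT DMSO, 10.8, 12.5 and 10.4 CPM in WT thapsigargin, 35.1, 31.1 and 40.8 CPM in Perk-null DMSO and 43.2, 41.5 and 51.3 CPM in Perk-null thapsigargin libraries. The WT thapsigargin libraries stood apart below the rest. Nsdhl, another enzyme of the pathway, differed by 2.12. Of 11 fatty acid synthesis genes 7 were higher, led by the elongase gene Elovl6 (1.66) and the desaturase gene Fads2 (1.35), and Fasn (0.30) did not pass the test.

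Most called collagen genes were also higher. Of 16 chains 9 were higher and 1, Col5a3, lower, and of 17 processing enzymes 14 were higher and none lower. Col3a1, a fibrillar collagen chain, read 1808, 1879 and 1410 CPM in WT DMSO, 871, 936 and 851 CPM in WT thapsigargin, 608, 594 and 536 CPM in Perk-null DMSO and 990, 907 and 1104 CPM in Perk-null thapsigargin libraries. Thapsigargin lowered it in WT and raised it in Perk-null cells, from a DMSO level that differed by -1.55, and with thapsigargin the genotypes overlapped. Col11a1 (2.18), Plod1, a lysyl hydroxylase (1.23), and Loxl3, a lysyl oxidase whose gene overlaps Htra2 (1.23), were also called (all higher). In DMSO, 14 of the 17 processing genes were lower in Perk-null cells (24.9% of all tested genes were lower). In the TGF-β and myofibroblast list 6 of 16 were higher, led by the ligand gene Tgfb3 (2.56) and the receptor gene Tgfbr2 (1.74), and 3 were lower: Ctgf, Cyr61 and the inhibitor Smad7. Over all tested genes 19.5% were higher and 18.6% lower. The summed fibroblast markers, which include Col1a1, Col1a2 and Pdgfrb of these lists, were 23136 to 29798 CPM in WT DMSO, 15431 to 19118 CPM in WT thapsigargin, 15653 to 18611 CPM in Perk-null DMSO and 19104 to 23736 CPM in Perk-null thapsigargin libraries. In bulk samples fewer cells of a kind and less RNA per cell cannot be told apart.

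Genes of DNA replication fell in WT cells. Of 31, 24 fell in WT and none rose (median -0.73), 6 fell and 2 rose in Perk-null (median -0.06), and the difference was higher for 21 and lower for none. Over all tested genes 22.7% fell in WT, and 12.7% fell and 15.2% rose in Perk-null. The difference was higher for 19.5% of all tested genes and lower for 18.6%. Tk1, thymidine kinase, read 89.2, 77.1 and 75.6 CPM in WT DMSO, 19.8, 17.4 and 16.8 CPM in WT thapsigargin, 82.6, 95.7 and 85 CPM in Perk-null DMSO and 59.8, 67.7 and 52.5 CPM in Perk-null thapsigargin libraries. It fell in both genotypes and further in WT, in a gene that overlaps Afmid. Pcna, the sliding clamp, went from 141 ± 10.6 to 60.7 ± 16.2 CPM in WT and from 143 ± 21.4 to 137 ± 15.8 CPM in Perk-null cells (SD, n = 3). Among 22 mitosis genes 13 were higher and none lower, with Ccnb2, a mitotic cyclin gene, at 1.27. The E2F motif TTTCGCGC was present in 4 of 24 replication gene windows (16.7%) and in 0.754% of all.

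Replication-dependent histone mRNAs, which end in a stem-loop and not in a poly(A) tail, had the opposite sign to the replication genes. Of 17, 9 had a lower response in Perk-null cells and none a higher one, against 18.6% and 19.5% of all tested genes. The medians were 2.21 in WT and 0.43 in Perk-null. Their levels were low: Hist1h1d, a linker histone gene, read 0.371, 0.478 and 0.186 CPM in WT DMSO, 4.05, 5.59 and 4.30 CPM in WT thapsigargin, 1.23, 0.909 and 0.753 CPM in Perk-null DMSO and 1.52, 1.12 and 1.2 CPM in Perk-null thapsigargin libraries. The labels name both removal of ribosomal RNA and mRNA selection, and the part of library preparation in this result was not tested. Histone genes are near-identical copies, so how reads were shared among them is uncertain.

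Growth arrest and death genes split. Gadd45a, a stress-induced growth arrest gene, rose from 8.51, 8.88 and 6.47 CPM to 250, 239 and 190 CPM in WT, and from 8.93, 7.83 and 8.5 CPM to 14.5, 18.6 and 14.4 CPM in Perk-null cells. The DMSO libraries of the genotypes overlapped, and the difference was -3.92 (SE 0.33); the gene overlaps E230016M11Rik. Among 14 p53 targets and arrest genes 6 were lower and 3 higher (5 higher with the block within genotype), against 18.6% and 19.5% of all tested genes. Among 14 BCL-2 family and death receptor genes 5 were higher and 3 lower: Bcl2l11, the gene of the death activator BIM, fell in WT (-1.09) and rose in Perk-null (0.91), and Bid did the reverse (0.52 and -0.77). Bmf, another activator of this family, named after its values were seen, read 1.11, 1.32 and 0.464 CPM in WT DMSO, 0.0928, 0.270 and 0.222 CPM in WT thapsigargin, 0.519, 0.441 and 1.05 CPM in Perk-null DMSO and 6.86, 6.76 and 8.86 CPM in Perk-null thapsigargin libraries. The Perk-null thapsigargin libraries stood above all others, and the difference was 5.75 (SE 0.80), with counts as low as 3 in a library.

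Ccng2, a cyclin of non-dividing cells, read 24.6, 29.5 and 22 CPM in WT DMSO, 12.2, 17.1 and 13.9 CPM in WT thapsigargin, 12.4, 13 and 11.7 CPM in Perk-null DMSO and 61.1, 61.8 and 70.3 CPM in Perk-null thapsigargin libraries. Thapsigargin lowered it in WT and raised it in Perk-null cells without overlap within either genotype. Autophagy genes were called at about the share of all tested genes (19.5% higher, 18.6% lower): of 19, 5 were higher, among them the kinase genes Ulk1 (1.09) and Ulk2 (1.15) and Wipi1 (1.25), and 4 were lower, among them the cargo receptor gene Sqstm1 (1.90 in WT, 0.85 in Perk-null). The clock output gene Dbp, which overlaps Sphk2, was called in Perk-null alone (2.80 ± 1.06 and 2.23 ± 0.510 CPM in WT, 2.69 ± 0.528 and 15.3 ± 0.624 CPM in Perk-null; SD, n = 3), as were Lrrc17 (2.69) and the netrin gene Ntn4 (2.77). The clock list of 12 had 3 higher and 4 lower, with the repressor gene Cry1 at -2.82.

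Mitochondrial lists moved in both directions. The median difference was 0.30 for nuclear respiratory chain genes, 0.59 for mRNAs of mitochondrial DNA and -0.52 for mitochondrial proteostasis. Over all tested genes the response was higher in Perk-null cells for 19.5% and lower for 18.6%. Of 43 nuclear genes of the respiratory chain 15 were higher and none lower; 20 fell in WT (median -0.27) and none was called in Perk-null (median 0.02). With the block within genotype 27 were higher. Cox7b, a subunit of complex IV, read 255, 279 and 180 CPM in WT DMSO, 107, 98.0 and 68.7 CPM in WT thapsigargin, 226, 304 and 219 CPM in Perk-null DMSO and 267, 298 and 246 CPM in Perk-null thapsigargin libraries. The WT thapsigargin libraries were the lowest and did not overlap the other 9. The 13 mRNAs of mitochondrial DNA had a median response of -0.51 in WT and 0.01 in Perk-null. All their differences were positive (0.22 to 0.64), and 1, ND5, was called. With the block within genotype or with only these groups fitted 5 were called, and 10 with no filter on low counts. Mitochondrial proteostasis had 10 of 19 lower and 3 higher (1 higher without WT thapsigargin replicate 3), with the protease gene Lonp1 at -1.31 and the chaperone gene Hspa9 at -1.27, both rising in WT (1.61 and 1.17).

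Cytosolic ribosomal proteins changed less than the factors that build ribosomes. Of 40, 7 were higher and 1, Rpl10a, lower, with a median difference of 0.25. Over all tested genes 19.5% were higher and 18.6% lower, which are the shares to set beside each count in this paragraph. With the block within genotype 16 were higher and 2 lower. The count of higher genes was 12 without WT thapsigargin replicate 1, 11 without WT DMSO replicate 3, 4 without WT DMSO replicate 2 and 2 without WT thapsigargin replicate 3, WT DMSO replicate 1, Perk-null thapsigargin replicate 2, or Perk-null DMSO replicate 1 or 3. Of 22 genes of glucose uptake and glycolysis 10 were higher and 4 lower, including the hexokinase gene Hk2 (1.66 in WT, -1.35 in Perk-null). Of 15 NRF2 targets 6 were higher and 5 lower: Hmox1, heme oxygenase 1, rose by 3.16 and 0.98, while the glutathione transferase gene Gstm1 fell by 1.84 on the log2 scale in WT and rose in Perk-null. HSF1-linked chaperones had 6 of 15 higher, including the near-identical Hspa1a (1.69) and Hspa1b (1.65), and 2 lower. The count of lower genes was 1 when any of these libraries was left out: replicates 2 and 3 of WT DMSO, 1 and 2 of WT thapsigargin, 1 and 2 of Perk-null DMSO, and 1 and 3 of Perk-null thapsigargin. It was also 1 with scaling by total count alone and with no filter on low counts. The BMP and Wnt list had 5 of 17 higher and 2 lower, with the inhibitor gene Dkk3 at 2.30 (-2.32 in WT, -0.02 in Perk-null) and Smad6 at 2.35.

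By the naming rule, the largest negative response differences outside the ISR were those of Mmp13 (-6.14), Arid5a (-5.49), Avil (-5.17), Usp17la (-4.51), Ptpn22 (-4.41), Tnfsf11 (-4.34), Cxcl10 (-4.11) and Rnd1 (-4.01). Mmp13, a collagenase gene, read 3.26, 2.39 and 3.19 CPM in WT DMSO, 43.0, 60.3 and 15.5 CPM in WT thapsigargin, 31.2, 34.2 and 31.3 CPM in Perk-null DMSO and 7.21, 6.60 and 4.65 CPM in Perk-null thapsigargin libraries. WT and Perk-null levels crossed, and the WT thapsigargin libraries spread from 15.5 to 60.3 CPM. Arid5a, an RNA-binding protein that stabilises cytokine mRNAs, went from 8.71 ± 1.01 to 82.3 ± 8.84 CPM in WT and from 23.3 ± 2.84 to 4.89 ± 0.723 CPM in Perk-null cells (SD, n = 3). Avil, advillin, an actin regulator, was carried by WT alone, from 0.319 ± 0.0436 to 18.3 ± 1.75 CPM, with 1.85 ± 0.923 and 2.91 ± 0.730 CPM in Perk-null. Rnd1, a small GTPase gene, and Ptpn22, a phosphatase gene, rose in WT (3.02 and 2.82) and fell in Perk-null (-0.98 and -1.59). Usp17la, a deubiquitinase gene of a family of close copies whose reads may be shared, went from 0.448 ± 0.0407 to 14.9 ± 4.84 CPM in WT and stood at 0.254 ± 0.0541 and 0.369 ± 0.107 CPM in Perk-null cells.

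By the same rule, with its minimum level and counts, the largest positive differences outside the ISR were those of 5430435G22Rik (3.85), Mfap2 (3.56), Gas1 (3.29), Ccng2 (3.20), Scara3 (3.19), Gstm1 (3.04), Scx (3.00) and Idh1 (2.95). Mfap2, a microfibril gene, read 16.2, 21.5 and 25.9 CPM in WT DMSO, 3.65, 2.30 and 3.22 CPM in WT thapsigargin, 1.72, 1.35 and 1.43 CPM in Perk-null DMSO and 2.93, 2.02 and 2.67 CPM in Perk-null thapsigargin libraries. Its fall in WT started from DMSO levels that differed by -3.82 (Perk-null minus WT, log2), and 5430435G22Rik also fell in WT from a DMSO difference of -3.10. Gas1, a growth arrest gene of the cell surface, had a response of -1.98 in WT and 1.31 in Perk-null cells. Idh1, cytosolic isocitrate dehydrogenase, fell by 1.71 on the log2 scale in WT and rose by 1.24 in Perk-null. Scx, a tendon transcription factor gene that overlaps Bop1, was low in WT (at most 2.3 CPM) and read 31.2, 34.2 and 34.1 CPM in Perk-null thapsigargin libraries against 12.2, 9.51 and 9.95 CPM in Perk-null DMSO libraries.

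The same response difference was measured in 12 other libraries with BtdCPU, an activator of the eIF2 alpha kinase HRI, in all groups, and in 12 with halofuginone, which activates GCN2 by inhibiting prolyl-tRNA synthetase. It was called for 3974 genes with BtdCPU (24.7%) and for 226 with halofuginone (1.41%). Of the 3974, 50.1% were higher, and 31.4% were when libraries were scaled by total count alone. The lower response of ISR genes was mostly not called with either compound: among the 54 ISR genes with a lower response without compound, 1 was lower with BtdCPU and 1 with halofuginone (1.85% each, against 12.3% and 1.16% of all tested genes). Of the 54, 17 were called higher with BtdCPU and 0 with halofuginone, against 12.4% and 0.249% of all tested genes. Outside the ISR, 965 of the 2940 genes with a lower response were also lower with BtdCPU (32.8%, against 12.3%) and 70 with halofuginone (2.38%, against 1.16%). Of these 2940, 96 and 6 were called higher, against 12.4% and 0.249% of all tested genes. Of the 3129 higher genes, 1188 were also higher with BtdCPU (38.0%, against 12.4%) and 20 with halofuginone (0.639%, against 0.249%). Called lower were 73 of them with BtdCPU and 28 with halofuginone, against 12.3% and 1.16% of all tested genes. With halofuginone, lower calls outnumbered higher ones over all tested genes as well (186 and 40). The halofuginone count was 962 with the block within genotype and 59 when only its own 4 groups were fitted.

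Gene groups differed in this respect. ISR regulators had a median difference of -1.59 without compound, 0.47 with BtdCPU and -0.12 with halofuginone, and the change from the first was itself called for 13 of 14 genes with BtdCPU and 12 of 14 with halofuginone, all upward (8.42% and 11.6% of all tested genes were called upward). Ribosome biogenesis went from -1.45 to -0.17 and -0.18, with 19 and 17 of 22 genes called upward. NF-κB feedback genes stood at -1.52 without compound, -1.55 with BtdCPU, where 9 of 9 were lower, and 0.01 with halofuginone, and the change was called upward for 1 gene and downward for 3 with BtdCPU and upward for 6 with halofuginone. Immediate early and ERK feedback genes stood at -1.38, -1.38 and -0.40, with 15 and 5 of 23 lower. IRE1 decay substrates stood at 1.63, 1.09 and 0.13, with 8 of 8 higher with BtdCPU and a change called downward for 3 and 7 genes (6.39% and 12.3% of all tested genes). ATF6-linked chaperones stood at -1.03, -0.68 and -0.52. Of the 14, 8 were lower with BtdCPU and 4 with halofuginone (12.3% and 1.16% of all tested genes). The change was called upward for 2 of the 14 with each compound, against 8.42% and 11.6% of all tested genes.

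**Figure D4:**
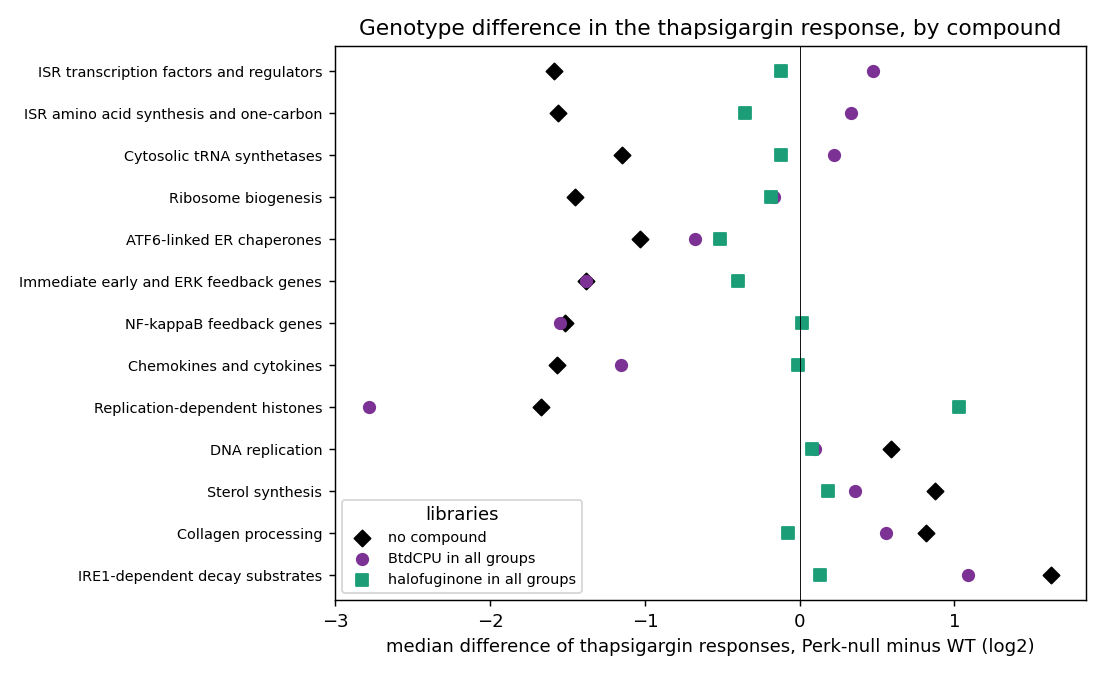
Median response difference of 13 gene lists (Perk-null minus WT, log2) in libraries without compound (diamonds), with BtdCPU (circles) and with halofuginone (squares). The ISR lists drawn lie left of 0 without compound and at -0.35 or above with either, while NF-κB and ERK feedback genes stay left of -1 with BtdCPU.

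In single genes, Nfkbie differed by -3.0 without compound, -3.79 with BtdCPU and -0.24 with halofuginone, and Fosl1 by -2.52, -2.67 and -0.84. The change was called with halofuginone for both (2.76 and 1.68, edgeR adjusted p 1.732e-05 and 0.0003591) and with BtdCPU for neither. Atf4 stood at -1.66, 0.08 and -0.25, and Hspa5 at -1.88, -0.38 and 0.24. For Atf4 and for Hspa5 the change was called with both compounds. In all, 59 genes with the level required for naming were called in the same direction in the 3 sets of libraries, 46 lower and 13 higher. The largest of them were Arid5a (-5.49, -1.22 and -0.85), Usp17la (-4.51, -3.71 and -1.95) and Etv5 (-3.92, -1.10 and -1.75) among the lower, and Efemp1 (2.05, 1.26 and 0.81), Tgfbr3 (1.94, 1.38 and 0.89) and Pgpep1 (1.69, 0.71 and 0.72) among the higher. Dnajb9 kept a negative difference in each (-2.29, -1.54 and -0.93).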

How the data were processed

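RNA was measured by strand-specific sequencing in 36 libraries, 12 of which carry the comparison described here. The authors deposited 1 table of estimated counts per gene symbol, with no normalization found in the values; GRCm39 and DESeq are named per the submitters' processing notes with no role, and the aligner, counter and annotation are not given in the sources used here. Of the deposited values 50.6% are the placeholder 0.025, taken as 0, and 2.69% are other values that are not whole; all were rounded. The 27 entries whose symbols had turned into dates (0.206 to 0.278% of counts) were left out, and 39 repeated symbols were summed.

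edgeR 4.0.16 (R 4.3.3, limma 3.58.1) fitted group means to all 36 libraries with TMM factors (0.961 to 1.04 in the 12), a robust quasi-likelihood test and 24 residual degrees of freedom, after filterByExpr kept 16065 of 36856 symbols. Benjamini-Hochberg adjustment ran over all tested genes, separately in each of 9 contrasts, with a threshold of 0.05. A gene's carrier was read from which genotype's own response passed the same threshold. CPM values of single genes use the TMM-scaled library sizes, and marker sums use the total counts. Gene length was not used, so levels are not compared between genes. Replicates of a group differed by more than sampling noise (chi-square per degree of freedom at least 11.1), and the fitting was tested on simulated data.

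The members and gene lists were chosen with earlier results of these data known. Named genes were a fixed set of readouts, the 8 largest response differences in each direction outside the ISR, and the 3 largest per carrier class, per list and per direction among genes called alike with both compounds. These needed an adjusted p under 0.05, an average log2 CPM of at least 2 and more than 3 counts in each of the 12 libraries (5079 genes). Of the 129 named genes 22 overlap another tested gene. Other genes in the text are list members chosen after their values were seen.

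Replicate numbers were checked for pairing by correlating deviations from group means over 9144 genes. Within a genotype same-numbered DMSO and thapsigargin libraries deviated together (0.281, 0.596 and 0.676 in WT, 0.329, 0.633 and 0.675 in Perk-null). Libraries with unlike numbers gave -0.606 to 0.266 in WT and -0.607 to 0.09 in Perk-null, so WT replicate 1 was hardly set apart. Between genotypes same-numbered libraries did not deviate together in every pair (-0.019, 0.581 and 0.56 in DMSO, 0.039, 0.299 and 0.471 with thapsigargin). Libraries with unlike numbers reached 0.295 in DMSO and 0.449 with thapsigargin. Fits with the replicate block, DESeq2 1.42.0, other scalings and filters and left-out libraries are described at the end. The direct test of the change in response difference with a compound was added after seeing the data. Promoter windows came from RefSeq (GRCm38.p6, a build other than GRCm39) by symbol, and 11806 tested genes had one. Some genes are not reported here.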

Additional observations from a re-analysis of the deposited data

Results flagged for a closer look

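The change with thapsigargin differed between the genotypes by a direct test for 6124 genes, for 3974 with BtdCPU in all groups and for 226 with halofuginone in all groups. Among the fixed readouts the response difference (Perk-null minus WT, log2) was -1.66 for Atf4, -3.46 for Ddit3, -1.83 for Asns, -2.67 for Chac1, -2.66 for Trib3, -0.87 for Psat1, -1.88 for Hspa5 and -2.29 for Dnajb9. Outside the ISR it was -6.14 for Mmp13, -5.49 for Arid5a, -5.17 for Avil, -4.51 for Usp17la, -4.41 for Ptpn22, -4.34 for Tnfsf11, -4.11 for Cxcl10 and -4.01 for Rnd1. On the positive side it was 3.85 for 5430435G22Rik, 3.56 for Mfap2, 3.29 for Gas1, 3.20 for Ccng2, 3.19 for Scara3, 3.04 for Gstm1, 3.00 for Scx and 2.95 for Idh1.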

How the results depend on the processing

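The count of genes with a response difference stayed between 5531 and 7670 under every alternative tried, and no named gene changed direction. Of 128 named genes called, 122 stayed called in each of 19 alternatives; Hist1h1b, Irf9, ND5, P4ha3, Rpl37 and Rps25 missed the threshold in some. Among genes named in the text the replicate block within genotype changed the calls of Npm1, Pycr1 and Xbp1, and it moved list counts by over 1.5 times where given beside them; further list members not named also gained a call. It gave 962 genes for the halofuginone response difference (226 as reported) and 4184 for its change with BtdCPU (2379). With a block shared by genotypes these were 558 and 3632. The halofuginone count was 401 with no filter, 401 with DESeq2 and 59 with only its groups fitted; leaving out 1 library gave 98 to 376, with 119, 98 and 376 without Perk-null halofuginone replicates 1, 2 and 3, 122 and 120 without Perk-null halofuginone plus thapsigargin replicates 1 and 3, 148 without WT halofuginone replicate 3 and 127 without WT halofuginone plus thapsigargin replicate 2. Leaving out 1 library gave 1798 to 3460 for the change with BtdCPU. The median of the ER calcium list was -0.188, and -0.224 to 0.024 with 1 library left out, positive only without Perk-null DMSO replicate 2. Library size alone moved the all-gene median by -0.144 for the BtdCPU response difference, of which 31.4% were then higher against 50.1%, and 38.5% against 56.8% for its change from no compound. The cause of these changes was not tested. Groups of 3 libraries limit the precision; the naming rule required more than 3 counts in each library, which Ccl20 and Bmf did not meet.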
